A study of Mus musculus with 3 samples.

Results

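The wells described here are single-cell wells in which the mitochondrial genome supplied at least 20% of all gene UMIs (unique molecular identifiers, 1 per captured RNA molecule). Of 4610 wells holding mouse embryonic stem cells, 86 met this rule, 25 on plate 1, 38 on plate 2 and 23 on plate 3. They are called high wells. The reference wells, 4413 in number, had a share under 20% and at least 1000 detected genes. The remaining 111 wells had a share under 20% and fewer than 1000 genes and belong to neither class. Because the mitochondrial share chose the wells, it is a description here, and tests concern only the make-up of the non-mitochondrial RNA, the cell types and other measures the rule did not use. Possible exceptions, described below, are nuclear genes that closely copy mitochondrial ones and the share of aligned reads that met no annotated feature.

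The cells were derived from the blastocyst, on a C57BL/6J background, and all of them carried a Cre-ER transgene and an Mll1 gene flanked by loxP sites. Mll1, now named Kmt2a, encodes a histone H3 lysine 4 methyltransferase. Every plate held 3 cell types: Mll1fl/fl control cells, cells labelled Mll1-/- (deleted) and cells with Mll1 inhibition (inhibited). The labels do not name the inhibitor, a dose, a time or the exons removed, and they do not say whether the plates came from separate cultures, so the p-values below speak to plate-to-plate spread only, part of which could be technical. Of 3380 well barcodes, 1123 occurred on more than 1 plate.

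As background, the mitochondrial genome encodes subunits of the respiratory chain and ATP synthase, the ribosomal RNAs of the mitochondrial ribosome, and transfer RNAs. The other subunits, and the proteins of the mitochondrial ribosome, are encoded in the nucleus, translated in the cytosol and imported. In single-cell work a high mitochondrial share is a common filter for cells that are damaged or dying, because RNA enclosed in mitochondria can stay in a cell that has lost cytosolic RNA; it can also be high in cells rich in mitochondria.

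Parts of the mitochondrial genome also lie as copies in nuclear chromosomes, and reads from a mitochondrial gene and from a close copy can be hard to tell apart. The first 90 bases of mt-Co2 (cytochrome c oxidase subunit 2), of its copy Gm13341 and of its copy Gm28661 are shown because mt-Co2 itself was hardly counted while Gm13341 was. Capitals mark bases that differ between mt-Co2 and Gm13341.
mt-Co2: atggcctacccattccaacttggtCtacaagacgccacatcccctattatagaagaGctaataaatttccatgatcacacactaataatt
Gm13341: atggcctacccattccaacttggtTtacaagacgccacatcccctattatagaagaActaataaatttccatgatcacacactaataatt
Gm28661: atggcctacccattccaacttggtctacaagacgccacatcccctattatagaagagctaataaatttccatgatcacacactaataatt
Counted from 1 at the first base shown, the changes from mt-Co2 to Gm13341 are C25T and G57A, and Gm28661 had 0 differences over these bases. The sequences are from the GENCODE M21 transcripts of GRCm38 (mm10), in which Gm13341 is a pseudogene on chromosome 2 (22587291 to 22587962, minus strand) with 95.9% identity to mt-Co2 over 684 aligned bases, and Gm28661 lies on chromosome 1 (24614885 to 24615565, minus strand) with 100% identity over 681. Also shown, with capitals where they differ, are mt-Co1 (cytochrome c oxidase subunit 1) and its copy Gm13340. They are 97.6% identical over 1545 bases, and Gm13340 lies next to Gm13341 on chromosome 2 (22588103 to 22589647, minus strand). Unlike mt-Co2, mt-Co1 was counted, with 401990, 413095 and 379982 UMIs in the reference sums of plates 1 to 3. Gm13340 had 9281, 5947 and 5488 there.
mt-Co1: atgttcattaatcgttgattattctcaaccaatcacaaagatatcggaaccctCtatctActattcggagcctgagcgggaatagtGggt
Gm13340: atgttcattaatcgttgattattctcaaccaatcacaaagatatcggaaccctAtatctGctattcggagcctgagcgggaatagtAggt
The 3 differences in this stretch are C54A, A60G and G87A.

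The high wells formed the upper end of a continuous spread. Their shares ran from 20.1 to 42.7% with a median of 24.4%, against a median of 3.40% in reference wells. Of the 86, 49 lay between 20 and 25%, 21 between 25 and 30% and 16 at 30% or above. The wells just inside the threshold had shares of 20.07 to 20.32% and those just outside 19.42 to 19.93%. Below it, 84 wells had 15 to under 20% and 155 had 10 to under 15%. In all but 2 of the high wells at least 1000 genes were detected.

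High wells held more mitochondrial UMIs than reference wells on every plate, while their non-mitochondrial content was lower on only some plates. The median mitochondrial count was 4646, 4860.5 and 9159 UMIs in high wells of plates 1 to 3, against 1480, 1267.5 and 1259 in reference wells. The median non-mitochondrial count was 14213 against 38013 on plate 1 and 13654.5 against 34449.5 on plate 2. On plate 3 it was 32677 in high wells and 31282.5 in reference wells, so that the lower content seen on the other two plates was not seen there. Detected genes had medians of 2695, 2347 and 3587 per high well and 4080, 3869.5 and 3791 per reference well. All of these counts enter the share or follow from depth, and no test is given.

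**Figure D1:**
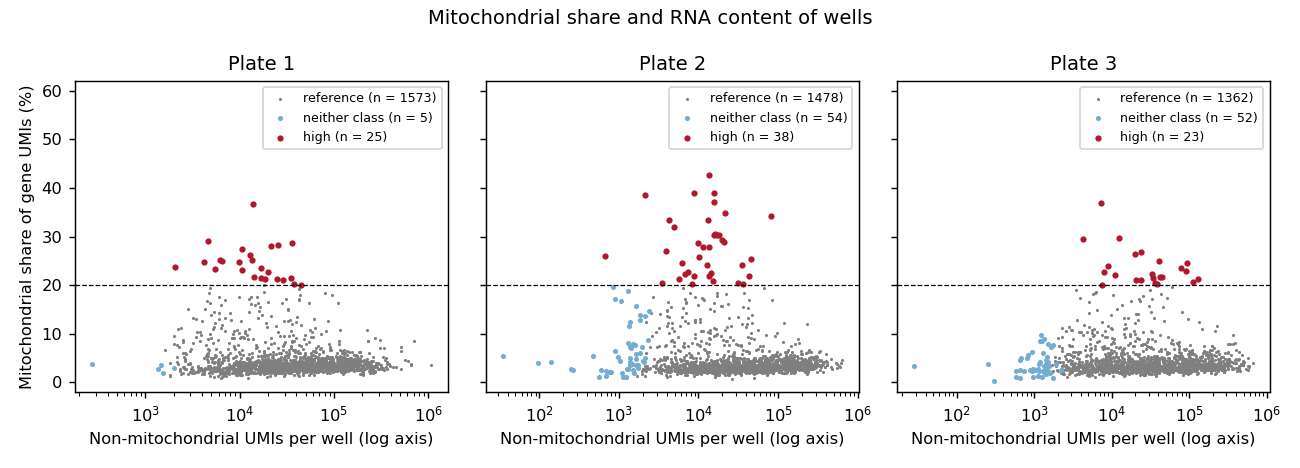
Each point is a well, with non-mitochondrial UMIs on a log axis and the mitochondrial share of gene UMIs (%) on the vertical axis, in 1 panel per plate. High wells are red, reference wells grey and wells of neither class blue, and the dashed line is the 20% threshold. The deepest high well had 44676, 82310 and 128604 non-mitochondrial UMIs on plates 1 to 3. On plates 1 and 2 this lies below the upper quartile of reference wells, 91224 and 94272.

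Both kinds of RNA were also set against spike-in RNAs. The count tables hold ERCC and SIRV sequences, control RNAs of known composition, which the labels do not mention. Mitochondrial UMIs per spike-in UMI had a median of 12.2, 6.69 and 12.2 in high wells of plates 1 to 3 and 8.07, 7.84 and 8.97 in reference wells, higher on 2 plates and lower on plate 2. Non-mitochondrial UMIs per spike-in UMI had a median of 36.9, 15.5 and 39.5 in high wells and 215, 214 and 234 in reference wells. The wells were chosen for a high ratio of mitochondrial to other RNA, so that these ratios had to lie apart; the values show only where each lies against the spike-ins. Spike-ins took a median of 2.00, 4.38 and 1.92% of UMIs in high wells and 0.444, 0.442 and 0.409% in reference wells, a mean difference of 2.33 percentage points (exact sign permutation over 3 plates, two-sided p = 0.25, the smallest that 3 plates allow). Whether the spike-ins were dispensed evenly is not known, and single wells spread widely: non-mitochondrial UMIs per spike-in UMI ran from 2.91 to 1966 in high wells of plate 2.

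The reads of high wells also fell on genes less often. The median share of aligned reads that met no annotated feature was 33.6, 31.0 and 30.1% in high wells and 24.9, 20.2 and 20.9% in reference wells. The difference was 8.76, 10.8 and 9.24 points (exact sign permutation, two-sided p = 0.25). The aligned reads include mitochondrial ones, for which the wells were chosen, so this comparison is not independent of the rule. The part of mitochondrial reads in the difference was not tested. Reads assigned per UMI, a measure of amplification, were lower by a mean of 0.72 (6.08 against 6.85 over all wells). These values move with every result below, and their part in it was not tested.

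High wells were most frequent among cells labelled deleted and least frequent among control cells, on each of the 3 plates. Among deleted cells they made up 13 of 427 wells (3.04%), 24 of 395 (6.08%) and 14 of 582 (2.41%) on plates 1 to 3. Among inhibited cells the counts were 6 of 551 (1.09%), 12 of 601 (2.00%) and 7 of 505 (1.39%). Among control cells they were 6 of 625 (0.960%), 2 of 574 (0.348%) and 2 of 350 (0.571%). The 95% exact (Clopper-Pearson) interval of the deleted share was 3.93 to 8.91% on plate 2 and did not meet that of control cells, 0.0422 to 1.25%; on plates 1 and 3 the intervals overlapped. Intervals cover counting error only.

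The deleted share exceeded the control share by 3.22 ± 2.18 percentage points (SD, n = 3 plates) and the inhibited share by 2.35 ± 1.57. The inhibited share exceeded the control share by 0.864 ± 0.761. Each of these 3 comparisons kept 1 direction on all plates and had an exact two-sided sign permutation p of 0.25, 0.25 after adjustment over the 3, which is the smallest possible. Without plate 2 the excess of deleted over control cells was 1.96 points. The well reports name a source well for each well, and within a type the share varied between source wells: from 1.402 to 4.69% for deleted and 0 to 2.5% for control cells on plate 1, where the ranges overlapped. On plate 2 these ranges were 3.74 to 8.17% and 0 to 0.617%, and on plate 3 1.75 to 2.93% and 0.562 to 0.581%. On each plate a source well held 1 type, but the positions changed on plate 3. Positions D1 and D2 held deleted cells on plates 1 and 2, with 1.402 to 8.17% high wells, and control cells on plate 3, with 0.562 and 0.581%. Positions A2, B2 and C2 held inhibited cells on plates 1 and 2, with 0.752 to 2.45%, and deleted cells on plate 3, with 1.75 to 2.93%. Plate differs along with type in these comparisons of positions, and its part was not tested.

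**Figure D2:**
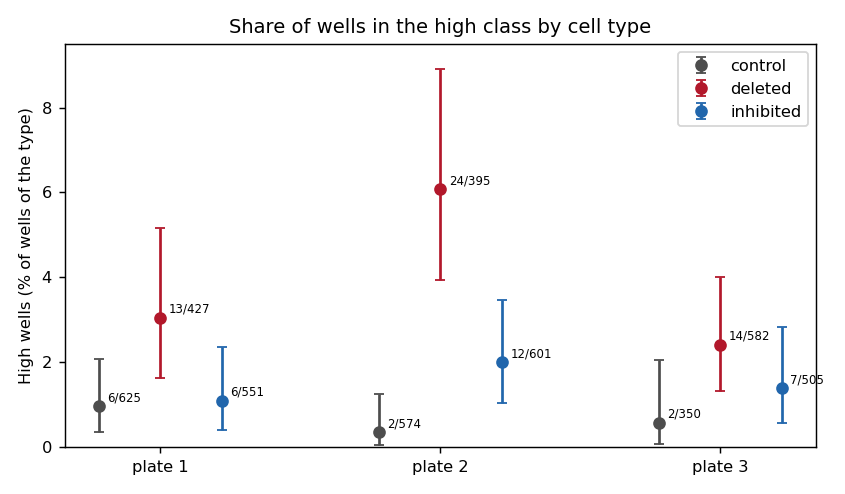
Points give the percentage of wells of each cell type that were high on each plate, with 95% Clopper-Pearson intervals and the counts beside them. Deleted cells (red) lie highest and control cells (dark grey) lowest on every plate, and the deleted point of plate 2, at 6.08%, lies highest of all.

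Kmt2a, the targeted gene (ENSMUSG00000002028; chromosome 9, 44803355 to 44881296, minus strand), does not check the labels. Its CPM (UMIs scaled to a fixed library total, here the non-mitochondrial UMIs, with no TMM scaling) in reference wells was 52.995, 51.5 and 58.3 in control cells, 66.1, 52.5 and 41.8 in cells labelled deleted and 41.1, 43.1 and 48.6 in inhibited cells, and the position of the deleted exons is not known. Over all types it stood at 215, 266 and 34.0 TMM-scaled CPM, the scale used from here on unless stated, in high wells and 55.9, 52.3 and 51.2 in reference wells. Plate 3 went the other way from plates 1 and 2, and the difference, 1.32 ± 0.61 (log2 ± SE), was not called (edgeR, adjusted p = 0.307). In control cells the high wells held 3, 0 and 0 Kmt2a UMIs, in sums of only 91888, 18387 and 74706 non-mitochondrial UMIs. These counts are too small to read as an absence, and the class difference in control cells was not called (edgeR adjusted p = 0.52). The high wells of deleted cells held 50, 150 and 19 Kmt2a UMIs and those of inhibited cells 36, 13 and 9.

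Within the mitochondrial RNA itself, ribosomal RNA took a larger part in high wells and messenger RNA a smaller one. The 2 ribosomal RNAs together made up 43.6, 36.4 and 38.6% of mitochondrial UMIs in high wells of plates 1 to 3 and 32.9, 24.8 and 30.6% in reference wells. That is 10.1 ± 1.84 points more (SD, n = 3 plates), beyond the spread between plates. Most of it came from mt-Rnr2, the large ribosomal RNA (mitochondrial genome, bases 1094 to 2675): 27.6, 24.4 and 25.0% against 19.1, 15.6 and 18.7%, with no overlap. mt-Rnr1, the small ribosomal RNA (bases 70 to 1024), stood at 15.97, 11.9 and 13.6% against 13.8, 9.18 and 11.9%; it was higher on each plate, but the groups overlapped across plates.

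The counted messenger RNAs together fell by 9.80 ± 1.77 points, and they did not fall alike. Their part was 66.5, 74.7 and 69.1% in reference wells and 56.1, 63.4 and 61.2% in high wells. mt-Cytb, which encodes cytochrome b of complex III, made up 15.3, 13.5 and 21.4% against 19.5, 19.4 and 25.4%, lower on each plate. mt-Co1 made up 7.40, 7.62 and 7.93% against 8.82, 9.92 and 9.02%, and these groups did not overlap. mt-Nd4, a complex I subunit, was lower on each plate as well (mean 10.1 against 11.9%), and so was mt-Nd6, the complex I subunit encoded on the other strand (1.03 against 1.39%). mt-Nd1, another complex I subunit, took 16.1, 21.6 and 11.9% of mitochondrial UMIs in high wells and 16.05, 22.1 and 12.1% in reference wells, a difference of -0.25 ± 0.32 points, within the spread between plates. mt-Nd5 (3.27 against 3.75%) and mt-Nd3 (0.0713 against 0.0629%) did not keep 1 direction over the plates. Transfer RNAs made up 0.266, 0.224 and 0.120% against 0.647, 0.536 and 0.330%, lower on each plate.

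**Figure D3:**
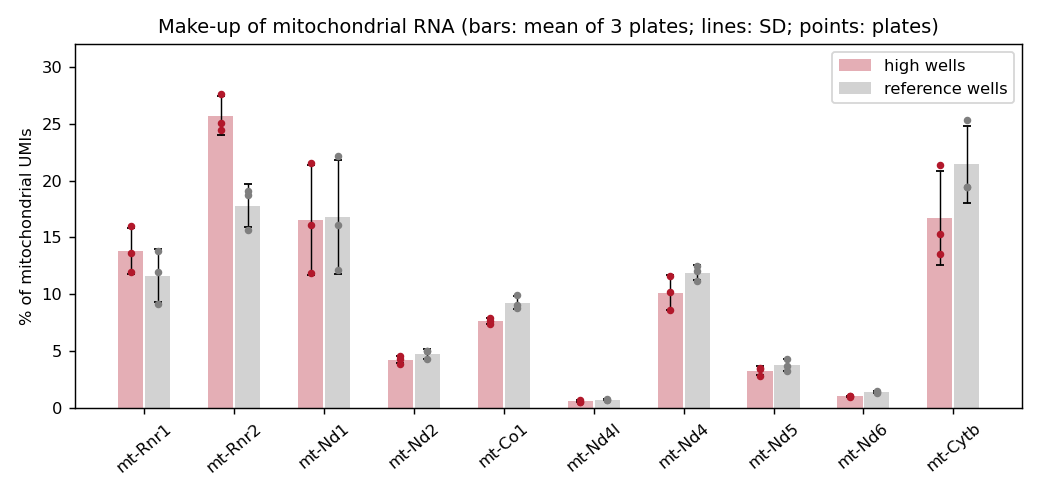
Bars show each mitochondrial RNA as a percentage of mitochondrial UMIs, as the mean of 3 plates with SD, with points for the plates, in high (red) and reference (grey) wells. mt-Rnr2 is higher in high wells with no overlap (25.7 against 17.8%), mt-Cytb is lower on each plate and mt-Nd1 is nearly level.

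A set of mitochondrial messenger RNAs could not be followed. mt-Co2 was listed with 3, 10 and 7 UMIs in the reference wells of plates 1 to 3 and with 0 in all high wells, and mt-Atp8, mt-Atp6 and mt-Co3 had at most 43 UMIs in any sum. mt-Co2, mt-Atp6 and mt-Co3 each have a nuclear copy on chromosome 1 that is 100% identical over 681, 678 and 783 bases. Close copies there also match mt-Nd4 (100% identical over 876 bases), mt-Nd4l (100% over 294) and mt-Nd3 (99.71% over 345). The copy of mt-Nd4 covers only part of that gene (mitochondrial genome, bases 10167 to 11544). In the reference sums mt-Nd4 had 509802, 520736 and 506743 UMIs. There mt-Nd4l had 31395, 32314 and 30316 UMIs and mt-Nd3 had 3330, 2305 and 2546. The part of the copies in the low counts was not tested. The treatment of reads with more than 1 place is not known, so the near-zero counts cannot be read as levels, and the shares of mt-Nd4, mt-Nd4l and mt-Nd3 are uncertain. The messenger RNA total and all shares of mitochondrial UMIs were taken nearly without mt-Co2, mt-Atp8, mt-Atp6 and mt-Co3.

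The diverged copies of chromosomes 2 and 13 were counted, and all 3 described here made up more of the non-mitochondrial RNA in high wells. Gm13341 stood at 3514, 3790 and 2526 CPM of non-mitochondrial RNA in high wells and 614, 533 and 558 in reference wells. The difference was 2.51 ± 0.17 (log2 ± SE). Gm13340 stood at 689, 476 and 373 CPM against 92.6, 61.2 and 59.2, and Gm4076 (chromosome 13, 85126550 to 85127514, 95.2% identical to mt-Nd5) at 126, 202 and 121 CPM against 31.9, 17.4 and 18.3. None of these groups overlapped. Set against mitochondrial UMIs the direction was the opposite for Gm13341, which had 104, 92.3 and 77.4 UMIs per 10000 mitochondrial UMIs in high wells and 135, 125 and 123 in reference wells, with no overlap. On that measure Gm13340 had 20.35, 11.6 and 11.4 against 20.37, 14.3 and 13.0, nearly level on plate 1 and lower on plates 2 and 3. Gm4076 had 3.71, 4.92 and 3.72 against 7.02, 4.07 and 4.01, higher on plate 2 and lower on plates 1 and 3. Set against mt-Co1 alone, Gm13340 had 2.75, 1.52 and 1.44 UMIs per 100 in high wells and 2.31, 1.44 and 1.44 in reference wells, higher on plate 1 and nearly level on plate 3. Whether these UMIs come from the nuclear copy or from mitochondrial RNA cannot be told apart in counts. If they are mitochondrial RNA, the choice of wells by itself raises their share of non-mitochondrial RNA. Their calls below are therefore no independent result.

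The make-up of the nuclear RNA was then compared between the classes, with UMIs summed per plate and class and plate as a block. High wells gave 441641, 634271 and 915730 non-mitochondrial UMIs and reference wells 107203838, 102756503 and 97708815. The deepest single well supplied 10.1, 13.0 and 14.0% of the high sums. A level is a share of non-mitochondrial RNA (CPM), so a gene called higher made up a larger part of what was left and need not have more molecules per cell. Of 5653 genes abundant enough to test, 63 (1.11%) passed an adjusted p of 0.05 with edgeR's quasi-likelihood test, 31 higher (0.548%) and 32 lower (0.566%), and 942 (16.7%) had an unadjusted p under 0.05. DESeq2 called 475 (8.4%), all 63 among them, and the 3 sums of the classes did not overlap for 1780 genes (31.5%). The split between directions moved with the settings: 34 higher and 24 lower with DESeq2's size factors in edgeR, 41 and 88 with plate and cell type as a block, 69 and 107 with edgeR's filterByExpr, and 35 and 117 with no filter on low counts. The calls depended on all plates: 4, 2 and 30 genes were called without plate 1, 2 and 3, of which 4, 2 and 22 were among the 63. All 63 kept their direction each time, but these fits reuse plates that gave the 63, so this is no independent support. The median difference over all genes tested was -0.04.

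The 12 largest rises among called genes held the 3 copies above, with the limit given there, the nuclear noncoding RNA Neat1 and 3 genes of chromatin proteins. Neat1, the scaffold of nuclear paraspeckles (chromosome 19, 5824708 to 5845478, minus strand), stood at 665, 241 and 336 CPM in high wells and 117, 101.1 and 127 in reference wells (1.72 ± 0.33, edgeR adjusted p = 0.0386). Baz1b, which encodes a bromodomain protein of chromatin remodelling complexes, stood at 471, 320 and 426 CPM against 103, 116 and 106 (1.89 ± 0.30, edgeR adjusted p = 0.0186). Both groups were apart on every plate. Setd2, the histone H3 lysine 36 methyltransferase, stood at 283, 469 and 290 CPM against 98.1, 102 and 100.8 (1.75 ± 0.31), and Ehmt2, the lysine 9 methyltransferase G9a, at 317, 178 and 305 CPM against 92.0, 71.6 and 78.1 (1.69 ± 0.35). Without the deepest high well of each plate the adjusted p of Baz1b, Setd2 and Ehmt2 was 0.063, 0.061 and 0.086.

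The other 5 genes of the 12 largest rises have products of different kinds. Lrp5, a co-receptor of Wnt signalling, stood at 447, 225 and 249 CPM in high wells and 55.1, 19.4 and 53.5 in reference wells (2.92 ± 0.40, edgeR adjusted p = 0.00807) and had UMIs in 84 of the 86 high wells. Mmp9, a secreted matrix metalloproteinase, stood at 203, 137 and 175 CPM against 35.2, 15.4 and 38.7 (2.61 ± 0.46). Lonp1, the protease of the mitochondrial matrix, stood at 79.8, 271 and 441 CPM against 39.7, 33.6 and 46.3 (2.48 ± 0.51), and 43.8% of its UMIs in high wells lay in 1 well. Hsdl1, a dehydrogenase-like protein, rose by 2.55 ± 0.53 with 47.0% of its UMIs in 1 well. Without the deepest high well of each plate Lonp1 and Hsdl1 stood at 2.24 and 2.34 and were no longer called (edgeR adjusted p = 0.063 and 0.0842). Cnpy4 had UMIs in 10 high wells only, 51.2% of them in 1; its difference of 3.04 ± 0.58 became -0.07 without the deepest high well of each plate, and no rise can be read from it.

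Several abundant housekeeping messages were called higher by a smaller amount. Hsp90ab1 and Hsp90aa1, cytosolic chaperones, rose by 0.67 ± 0.11 and 0.60 ± 0.10, Actb (beta-actin) by 0.65 ± 0.12, Eef2 (the ribosome translocation factor) by 1.10 ± 0.19 and Pabpc1 (the cytoplasmic poly(A)-binding protein) by 0.84 ± 0.14. Hsp90ab1 stood at 5735, 5781 and 6037 CPM in high wells and 3661, 3889 and 3527 in reference wells, with no overlap. Gm42418, named after its values were seen, was the most abundant gene called: 52291, 45427 and 45784 CPM against 27101, 14616 and 22046 (1.21 ± 0.11, edgeR adjusted p = 0.00063). All of its 1831 bases (chromosome 17, 39846958 to 39848788) overlap an annotated ribosomal RNA on the opposite strand, and reads of the 2 cannot be told apart where strand is not counted.

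The genes that fell have products of different kinds, some of them in mitochondria or the secretory pathway. Txn1, thioredoxin 1 (chromosome 4, 57943373 to 57956411, minus strand), stood at 1259, 781 and 1582 CPM in high wells and 3747, 2293 and 4385 in reference wells, a difference of -1.53 ± 0.13 (edgeR adjusted p = 0.00048). 1810037I17Rik stood at 1095, 580 and 495 CPM against 2682, 2060 and 2890 (-1.89 ± 0.22). Tmem126a, an assembly factor of respiratory complex I, stood at 31.4, 48.9 and 65.6 CPM against 297, 258 and 337 (-2.64 ± 0.38, edgeR adjusted p = 0.0109). All 3 were lower in every high sum than in any reference sum.

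Within the secretory pathway, Spcs1 and Spcs2, subunits of the signal peptidase, fell by 1.58 ± 0.27 and 1.57 ± 0.32, Pdia3, a disulphide isomerase of the endoplasmic reticulum, by 1.77 ± 0.32, and Ctsl, the lysosomal protease cathepsin L, by 1.51 ± 0.29. Without the deepest high well of each plate Spcs2 was no longer called (edgeR adjusted p = 0.0606), while Spcs1, Pdia3 and Ctsl still were. Cnih4, a cargo receptor of export from the endoplasmic reticulum, stood at 155, 192 and 297 CPM against 866, 820 and 720. Of 41 genes of the secretory and membrane protein list that could be tested, 5 were called lower and 0 higher, while 17 had a difference above 0 and the list's median was -0.08, near the -0.04 of all genes. Of 23 pluripotency genes tested, 14 lay above 0 and 9 below (median 0.25), with 0 called higher and 1 lower. The gene called lower was Nr0b1 (the orphan receptor Dax1), at 21.8, 6.52 and 26.7 CPM against 114, 96.7 and 187 (-2.96 ± 0.55), with UMIs in 15 high wells. Ube2t, a ubiquitin-conjugating enzyme of DNA repair, fell by 3.03 ± 0.62, with UMIs in 12. It was no longer called without the deepest high well of each plate (edgeR adjusted p = 0.0606), while Nr0b1 still was.

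**Figure D4:**
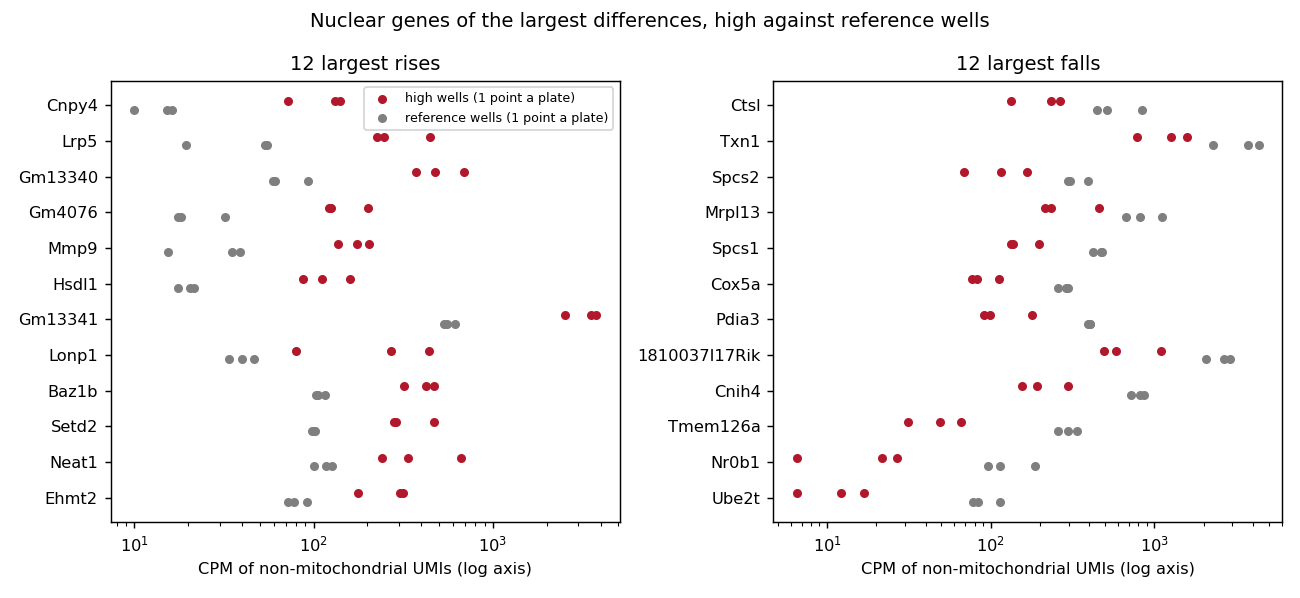
Points show the CPM of non-mitochondrial UMIs (log axis) on each plate in high (red) and reference (grey) wells, for the 12 largest rises and the 12 largest falls among called genes averaging 50 CPM or more. Red and grey points of each gene lie apart; the red points of Cnpy4 rest largely on 1 well.

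Nuclear genes of the respiratory chain and of the mitochondrial ribosome supplied a smaller part of the non-mitochondrial UMIs in high wells on each plate, though few of them were called one by one. The oxidative phosphorylation list took 3.03, 2.70 and 3.07% of non-mitochondrial UMIs in high wells and 4.21, 3.94 and 3.98% in reference wells, with no overlap. Of its 95 genes, 81 could be tested: 72 lay below 0, 9 above, the median was -0.56, and 2 were called lower and 0 higher. Atp5j, a subunit of ATP synthase, stood at 421, 605 and 710 CPM against 1437, 1361 and 1438 (-1.31 ± 0.20, edgeR adjusted p = 0.0131), and Cox5a, of complex IV, at 82.2, 112 and 76.5 CPM against 296, 287 and 257 (-1.65 ± 0.33, edgeR adjusted p = 0.048). Without the deepest high well of each plate Atp5j was still called and Cox5a was not (edgeR adjusted p = 0.0107 and 0.0573). By complex, all 13 tested genes of complex IV lay below 0 (median -0.69), as did 35 of 38 of complex I (-0.59), 8 of 9 of complex III (-0.16), 3 of 4 of complex II (-0.35) and 12 of 16 of ATP synthase (-0.38).

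Mitochondrial ribosomal proteins took 1.10, 0.991 and 1.17% of non-mitochondrial UMIs in high wells against 1.46, 1.52 and 1.45%. Of 73 tested, 57 lay below 0, the median was -0.46, and 2 were called lower and 0 higher. Mrpl42 stood at 698, 629 and 478 CPM against 1596, 1678 and 1455 (-1.40 ± 0.17), and Mrpl13 at 215, 233 and 458 CPM against 812, 674 and 1117 (-1.57 ± 0.22). Both encode proteins of the large subunit. The cytosolic ribosomal proteins took 5.89, 6.08 and 5.74% against 6.16, 6.41 and 5.74%; of 74 tested, 33 lay above 0, the median was -0.04, Rpsa was called higher (0.74 ± 0.15) and Rps27l lower (-0.81 ± 0.13). Their counts include processed pseudogenes and near-identical copies and are uncertain.

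Chromatin regulators took 0.657, 0.659 and 0.603% of non-mitochondrial UMIs in high wells and 0.384, 0.359 and 0.368% in reference wells, with no overlap. Of 33 tested, 29 lay above 0 with a median of 0.68, and 2 (Baz1b and Setd2) were called higher and 0 lower. Of 7 nuclear noncoding RNAs tested, 6 lay above 0 and Neat1 alone was called. Malat1, a nuclear RNA and the most abundant of that list, made up 17451, 15858 and 18941 CPM with no TMM scaling in high wells and 21000, 14696 and 20749 in reference wells, which overlapped.

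The difference varied with transcript length. Genes were put in 5 bins of about equal size by the longest annotated transcript (a length was found for 99.3% of genes tested). The shortest bin (57 to 1397 bases, 1123 genes) had a median difference of -0.45, the next bins -0.15, 0.04 and 0.10, and the longest bin (4958 bases and more) 0.34. The shortest bin supplied 29.2, 27.3 and 29.96% of non-mitochondrial UMIs in high wells and 35.5, 35.5 and 34.8% in reference wells, with no overlap. The longest bin supplied 14.1, 14.9 and 13.3% against 11.7, 10.6 and 11.4%. Across 5119 protein-coding genes, which are not independent replicates, the rank correlation with length was 0.31, and that with GC content 0.19. The lists above differ in length: the median transcript had 1005 bases in the oxidative phosphorylation list, 1849 for mitochondrial ribosomal proteins, 1054 for cytosolic ribosomal proteins and 8350 for chromatin regulators. Within the shortest bin, 51 oxidative phosphorylation genes had a median of -0.64 and 51 cytosolic ribosomal protein genes -0.05, on either side of the -0.45 of all genes there. The 28 mitochondrial ribosomal protein genes of that bin had a median of -0.45, level with all genes there. In the longest bin 5 of them had a median of -0.64 against 0.34. Within the longest bin, 29 chromatin regulators had a median of 0.66 against 0.34. The part of transcript length in each list was not tested beyond these values.

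The same measures were taken in wells outside the high class, the 228 reference wells with 10 to under 20% mitochondrial UMIs set against the reference wells under 10%. The low wells belong to the reference of the first comparison too, so the comparisons share controls and their values are given side by side. Of 9695 genes 50 (0.516%) were called, 22 higher (0.227%) and 28 lower (0.289%); with plate not taken as a block 0 were called with edgeR (1899 at an unadjusted p under 0.05), and without plates 1, 2 and 3 the count was 11, 4 and 156. Gm13341 differed by 1.42, Lrp5 by 2.20, Neat1 by 1.60 and Txn1 by -1.25, all called, beside 2.51, 2.92, 1.72 and -1.53 in high wells. For Gm13341 the limit given above for the copies holds here too, since the mitochondrial share also chose these wells. Setd2 and Cnpy4 differed by -0.12 and -0.60 (edgeR, adjusted p = 0.882 and 0.759), beside 1.75 and 3.04. The oxidative phosphorylation median was -0.44, that of mitochondrial ribosomal proteins -0.47 and that of chromatin regulators 0.49, while the shortest and longest bins stood at -0.43 and 0.26.

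Both lists also differed between wells below the threshold. Oxidative phosphorylation genes took 4.08 ± 0.141% (SD, n = 3 plates) of non-mitochondrial UMIs in wells with 2 to 4% mitochondrial UMIs, 3.83 ± 0.178% at 6 to 10%, 3.30 ± 0.306% at 10 to 20% and 2.86 ± 0.196% at 20 to 25%. Chromatin regulators took 0.353 ± 0.00990, 0.439 ± 0.00393, 0.555 ± 0.0928 and 0.676 ± 0.0682% in the same wells. Above 25% neither went further: 3.22 ± 0.450 and 0.560 ± 0.116%, from 9, 23 and 5 wells.

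**Figure D5:**
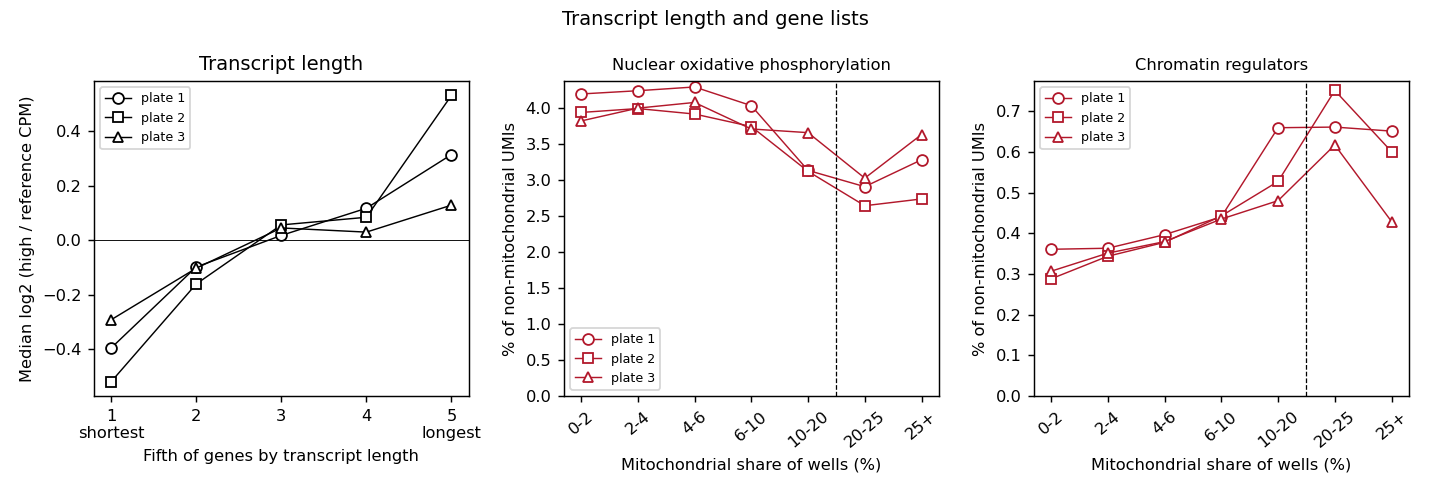
Left, the median log2 ratio of high to reference CPM for genes in 5 bins of transcript length, 1 line per plate; it rises from the shortest to the longest bin, least on plate 3. Middle and right, the percentage of non-mitochondrial UMIs from oxidative phosphorylation genes and chromatin regulators in wells grouped by mitochondrial share, with the dashed line at the 20% threshold.

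The mix of cell types differed between classes, since 51 of the 86 high wells held deleted cells. In deleted wells alone, 51 of 4234 genes (1.20%) were called, 23 higher (0.543%) and 28 lower (0.661%), and 39 of them were among the 63. These wells supplied 265185, 486431 and 629718 of the 441641, 634271 and 915730 non-mitochondrial UMIs of the high sums, so the overlap is no independent support. In deleted wells alone the median was -0.50 for oxidative phosphorylation, -0.70 for mitochondrial ribosomal proteins and 0.59 for chromatin regulators. With a class difference fitted for each type, 13 (0.23%), 7 (0.124%) and 10 (0.177%) of 5653 genes were called in control, deleted and inhibited wells, from 10, 51 and 25 high wells. The median difference over all genes in that fit was -0.59, -0.08 and -0.25. No gene's class difference was called as different between deleted and control cells with edgeR (307, or 5.43%, at an unadjusted p under 0.05), and 2 (0.0354%) were between inhibited and control cells.

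Markers of the labelled cell type were present in high wells. Of 30 pluripotency genes, 28 had UMIs in high wells, and Lefty2 and Prdm14 had none there; the list took 0.759, 0.578 and 0.733% of non-mitochondrial UMIs against 0.803, 0.753 and 0.810%. Pou5f1 and Sox2, core pluripotency factors, had 60, 47 and 71 and 30, 93 and 191 UMIs in the high sums. In CPM with no TMM scaling Pou5f1 stood at 136, 74.1 and 77.5 against 59.2, 55.3 and 54.7, and Sox2 at 67.9, 147 and 209 against 142, 114 and 138. Zfp42 was lower, at 79.2, 47.3 and 76.4 against 155, 117 and 139. Of 23 members tested, 14 lay above 0 and 9 below. Dppa5a, the most abundant member, weighs most in the list's share, at 3908, 2560 and 3857 CPM against 5280, 4908 and 5313. Of 15 fibroblast and feeder markers, 7 had no UMI in high wells, Col1a1 and Col1a2 among them, and the list took 0.011 to 0.0322% against 0.012 to 0.0185%. Trophectoderm markers took 0.0945 to 0.139% against 0.0886 to 0.134%, primitive endoderm markers 0.0168 to 0.0377% against 0.0167 to 0.0186%, and blood markers at most 0.00189%. Gata3, a trophectoderm regulator, stood at 209 CPM in high wells of plate 2 and 14.6 or less on the others, with 76.1% of its UMIs in 1 well.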

How the data were processed

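Single cells were sequenced in wells of 3 plates after reverse transcription with SMARTScribe and a modified Nextera XT library step, per the labels' protocols. The deposited tables hold raw UMI counts per gene and well. Submitters' processing notes name STAR 2.5.2b, featureCounts, Subread 1.4.6-p1 and mm10, without roles; the treatment of multi-mapped reads and of strand is not known. Row sums and gene numbers equalled the authors' well reports in all 4640 wells. Spike-ins, 15 control RNA wells and 15 wells without cells were left out of the comparisons; no doublet caller was run. Symbols and places are from GENCODE M21 (GRCm38).

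Non-mitochondrial UMIs were summed per plate and class, giving 6 libraries. Genes were kept if their mean CPM reached what 10 UMIs are worth in the smallest library. edgeR 4.0.16 (R 4.3.3) was used with TMM scaling, plate as a block, quasi-likelihood F tests and Benjamini-Hochberg adjustment at 0.05. High and reference wells of a plate are wells of the same plate, which is where the pairing comes from; the correlation of their deviations from the class means was 0.0835, 0.0865 and 0.0947 on plates 1 to 3. Named genes were the mitochondrial RNAs, Kmt2a, the 12 largest rises and falls among called genes of 1 sign on all plates and at least 50 CPM, and up to 3 genes of smallest p per list. Members and lists were chosen with earlier results of these data known. In data simulated from the first comparison (5329 genes), 6.74% of 2-fold and 56.3% of 4-fold changes were recovered. Of the calls made there, 8.33% fell on genes simulated without a change. Copies of mitochondrial DNA were found with blastn 2.17.0 (at least 90% identity over 100 bases). Alternatives changed the scaling, tool (DESeq2 1.42.0), filter, thresholds, wells and block.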

Additional observations from a re-analysis of the deposited data

Results flagged for a closer look

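The difference between high and reference wells was not the same in inhibited and control cells for 2 of 5653 genes, by an interaction test with edgeR. For Vps29, a subunit of the retromer complex, the class difference was -3.21 in control and 0.41 in inhibited wells, which differ by 3.62 ± 0.76 (log2 ± SE, adjusted p = 0.0345). For Gm42418 it was 0.55 in control, 1.15 in deleted and 1.46 in inhibited wells, and inhibited exceeded control by 0.91 ± 0.19 (edgeR adjusted p = 0.0345). Over all genes the median difference was -0.59 in control and -0.25 in inhibited wells, and the median of inhibited minus control was 0.39, a shift that both values above include. The control side rests on 10 high wells, and without 1 plate at a time 0 or 1 genes were called.

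The wells that received control RNA in place of cells enter no comparison above. Their median mitochondrial share was 17.9% (1.02 to 24.0%, 15 wells), against 2.44% in the 15 wells without cells (0 to 6.39%). By plate the medians were 18.03, 21.8 and 12.9% with control RNA and 0.714, 4.29 and 2.33% without cells.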

How the results depend on the processing

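The 63 calls between high and reference wells numbered 475 with DESeq2, 176 with edgeR's filterByExpr, 152 with no filter on low counts, 224 with a 15% threshold and 129 with plate and cell type as a block. They numbered 32 against reference wells of like depth, 26 without the deepest 5% of wells, 28 with wells thinned to 500 UMIs (144 genes tested), 2 with a 30% threshold (70 genes tested) and 2 to 30 with 1 plate left out. With no replicate block 65 were called, 43 of them among the 63. Chosen after seeing the data, leaving out nuclear genes like mitochondrial ones gave 46, deleted wells alone 51 and leaving out the deepest high well of each plate 55.

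For wells of 10 to under 20%, 0 genes were called with no replicate block (edgeR, 1899 at an unadjusted p under 0.05) and 4 to 156 with 1 plate left out. With 1 plate left out the calls were 3 to 24 in control, 3 to 9 in deleted and 2 to 12 in inhibited cells, and 0 to 1 for inhibited minus control. The excess of mt-Rnr1 was 2.88 points as a mean of per-well shares, against 2.19. Shares by cell type over 2 plates allow no exact permutation p below 0.5, and deleted minus control was then 1.96 to 3.91 points. Of single named genes, the Cnpy4 log2 difference went to -0.0662 without the deepest high well of each plate and the Mrpl42 log2 difference to 0.0212 with the 30% threshold. The causes were not tested, beyond the fewer genes, wells or plates that several settings leave. The high sums, at most 915730 UMIs each, limit the tests to abundant genes.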

Other observations

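Gene groups linked to stress, death and the cell cycle were measured in the same libraries. Over all genes tested 63 of 5653 (1.11%) were called, so 0 or 1 calls in lists of 11 to 26 genes say little about them. Of 13 apoptosis genes tested, 6 lay above 0 (median -0.05) and 0 were called with edgeR (2 at an unadjusted p under 0.05). Of 16 genes of p53 and its targets 8 lay above 0, and Rps27l alone was called, lower. Of 17 genes of ATF4 and the integrated stress response 11 lay above 0 (median 0.25), and Slc3a2, the heavy chain of amino acid transporters, was called lower (-0.86, edgeR adjusted p = 0.0467). Of 11 immediate early genes 8 lay above 0 (median 0.48) and 0 were called (0 at an unadjusted p under 0.05). The S phase and G2 and mitosis lists had medians of -0.11 (25 genes) and 0.02 (26 genes), with no call in either (5 and 3 genes at an unadjusted p under 0.05).

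Among 38 translation factors 23 lay above 0 (median 0.22), and Eef2 and Pabpc1 were called higher. Of 16 glycolysis genes 13 lay above 0 (median 0.40) with 0 called (4 at an unadjusted p under 0.05), and the list took 0.628, 0.743 and 0.626% of non-mitochondrial UMIs in high wells against 0.440, 0.526 and 0.449%. The heat shock and chaperone list took 2.05, 2.18 and 1.92% against 1.55, 1.63 and 1.51%, with the abundant Hsp90aa1 and Hsp90ab1 called higher, while 10 of its 19 genes lay above 0 and 9 below (median 0.08). Neither list's groups overlapped. Of 23 antioxidant genes 11 lay above 0, with Txn1 and Prdx1, a peroxiredoxin, called lower.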
